A study of Mus musculus with 12 samples.

Results

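Polyamine levels in a cell depend on a short chain of enzymes and their regulators, and some of their messages are controlled at the step of translation. The genes described here were 10 chosen by their roles in that chain: Odc1, Oaz1, Oaz2, Azin1, Amd1, Srm, Sms, Sat1, Paox and Smox. They are 10 of the 41255 genes listed for mRNA. Of these, 9 were among the 10080 genes listed for ribosome footprints (RPF), because Smox was not listed there and each listed gene had at least 1 footprint read in every library.

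The cells were clones of Ba/F3, a mouse lymphoid line that needs interleukin-3 to grow. All clones carried a retroviral human RPL10 cDNA, either wild type (WT) or with the leukemia-associated R98S change, together with an shRNA against the endogenous mouse Rpl10, so the WT controls shared both the vector and the knockdown. Each genotype had 3 monoclonal cultures grown from single cells (R98S clones 11, 13 and 35, and WT clones 28, 29 and 36), and each culture gave 1 mRNA library and 1 footprint library, 12 in all, from cells treated with 100 µg/ml cycloheximide for 5 min. A clone stands for 1 transduced cell, so the spread between clones includes what each founding cell brought with it.

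The mRNA libraries held 6617457 to 23136595 reads and the footprint libraries 3477723 to 10883086. The mRNA library of WT clone 28 was the shallow one, where 1 read was worth 2.69 normalized counts. Mouse Rpl10, which the shRNA targets in every clone, ranged from 1449 to 2905 normalized counts of mRNA under R98S and from 2230.3 to 4501 under WT, so it does not separate the labels. Of 10 pro-B and lymphoid markers, 3 averaged at least 10 normalized counts in mRNA, and Pax5, Rag1 and Il7r were listed at 0 in all 6 mRNA libraries. Their summed level was 5473 to 6667 in R98S and 6026 to 12912 in WT clones. Of 8 mast cell and basophil markers, 6 averaged at least 10 and Kit was listed at 0, with summed levels of 17671 to 29452 in R98S and 22621 to 27982 in WT clones. The sums hide opposite moves: in mRNA 5 of the 6 differences were positive, with a median of 1.21 (log2), Cpa3 was higher in R98S clones (3.28, limma adjusted p = 0.0506) and Gata2 lower (-0.73, adjusted p = 0.0805). Of the 3 lymphoid markers tested in footprints, Ptprc was lower (-1.19, limma adjusted p = 0.0157), and Cd79a and Cd79b went the other way. Mean Cd79a in R98S clones was 1.36 times WT in mRNA and 1.32 in footprints, and Cd79b 2.01 and 1.90. Neither had a limma adjusted p under 0.1 in mRNA or footprints. Ptprc alone ranged from 3802 to 11845 normalized counts of mRNA, so it made up most of the lymphoid sum. In bulk libraries fewer cells that express a gene and less RNA per cell cannot be told apart. The part of these markers in the results for the polyamine genes was not tested.

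Putrescine is made from ornithine by ornithine decarboxylase (Odc1), and spermidine synthase (Srm) and spermine synthase (Sms) then add aminopropyl groups that come from S-adenosylmethionine through its decarboxylase (Amd1). The antizymes Oaz1 and Oaz2 bind Odc1 and send it to the proteasome without ubiquitin, and a full antizyme is made only when the ribosome slips forward by a base at a stop codon, which polyamines favour. Azin1 resembles Odc1 but has no decarboxylase activity, and it releases Odc1 by taking up antizyme. Sat1 acetylates spermidine and spermine, Paox oxidizes the acetylated forms, and Smox oxidizes spermine directly. Rapidly dividing cells keep Odc1 and Srm high, and spermidine is also the source of hypusine, a modified lysine that the translation factor eIF5A needs.

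The shift sites are shown because they are the feature that makes antizyme output depend on the ribosome. They were read from the RefSeq annotation of GRCm38.p6, on the plus strand, as 30 bases around the base that the annotated reading frame skips; capitals mark the codon before the stop, the TGA stop of the first frame and the base after it, and the skipped base is the T of TGA.
Oaz1, chr10:80828280-80828309: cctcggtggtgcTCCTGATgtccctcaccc
Oaz2, chr9:65686257-65686286: cctctgtggtgcTCCTGATgcccctcaccc
The windows of the antizymes were identical at 28 of 30 bases, the 7 capital letters included. In Oaz1 the first frame has 68 codons before that stop out of 227 in the joined frame, and in Oaz2 32 out of 189. Footprints were counted by the authors over coding sequence without its first 15 and last 5 codons, so 25.6% of the counted codons of Oaz1 and 10.1% of those of Oaz2 lie before the shift. The deposited values are 1 number per gene and do not separate ribosomes before the shift from those after it.

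Amd1 has a short reading frame near the cap that ends before the main start codon. In its RefSeq transcript it lies on the minus strand, and is shown with its ATG and stop codon in capitals.
Amd1, chr10:40302155-40302175: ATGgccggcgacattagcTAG
It is 21 bases long, has 6 sense codons, and starts 317 bases before the main start codon in a 5′ leader of 330 bases. Leaders were searched for ATG on the sense strand in 1 RefSeq Select transcript per gene. Odc1 held 2 ATG triplets, Azin1 3, Sat1 2 and Sms 4, and Oaz1, Oaz2, Srm, Paox and Smox held none, which makes 5 of 10 genes, against 43.7% of the 20962 genes with such a transcript. Each of these 5 genes had at least 1 frame that ended inside the leader, against 36.5% of all. Azin1 also has a known conserved upstream frame without an ATG, which this search cannot see. Footprints on leaders were not counted by the authors, so no value below measures the upstream frames.

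The mRNA levels differed widely across the chain, with Amd1 and the oxidases Paox and Smox lowest. Per kilobase of exon, Oaz1 had 1566 ± 524 normalized counts (SD, n = 6 clones), Odc1 1390.5 ± 431, Sat1 1228 ± 223, Azin1 1079 ± 169 and Srm 1074 ± 335. With all exons as length, each step among these 5 held in only 3 or 4 of 6 mRNA libraries. Srm stood above Sms, the next gene, in 6 of 6. The order depends on annotated length. The exons of Sat1 cover 2774 bases and its longest coding transcript 896, while for Odc1 these are 3405 and 2208. Levels of mRNA by the length of the longest coding transcript were not compared. Sms (540.3 ± 146) and Oaz2 (539.9 ± 59) followed, Sms above Oaz2 in 3 of 6 libraries, then Amd1 (187 ± 46.3), Paox (40.3 ± 8.56) and Smox (3.55 ± 4.73), each step from Oaz2 down holding in 6 of 6 libraries.

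Footprints gave another order. Per kilobase of counted coding sequence, Srm had 1403 ± 398 normalized footprint counts (SD, n = 6 clones), Oaz1 999.7 ± 215, Sat1 391 ± 122, Odc1 279 ± 59.9, Azin1 239.9 ± 67.6, Sms 208 ± 34.7, Oaz2 140.04 ± 24.5, Paox 36.6 ± 14.3 and Amd1 27.8 ± 16.6. Oaz1 was above Sat1 in 6 of 6 libraries, and so were Sms above Oaz2 and Oaz2 above Paox. Srm stood above Oaz1 in only 4 of 6, and the same held for Sat1 above Odc1, Odc1 above Azin1 and Azin1 above Sms. Amd1 was below Paox in 5 of 6 libraries although its mRNA level per kilobase was above that of Paox in 6 of 6.

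**Figure D1:**
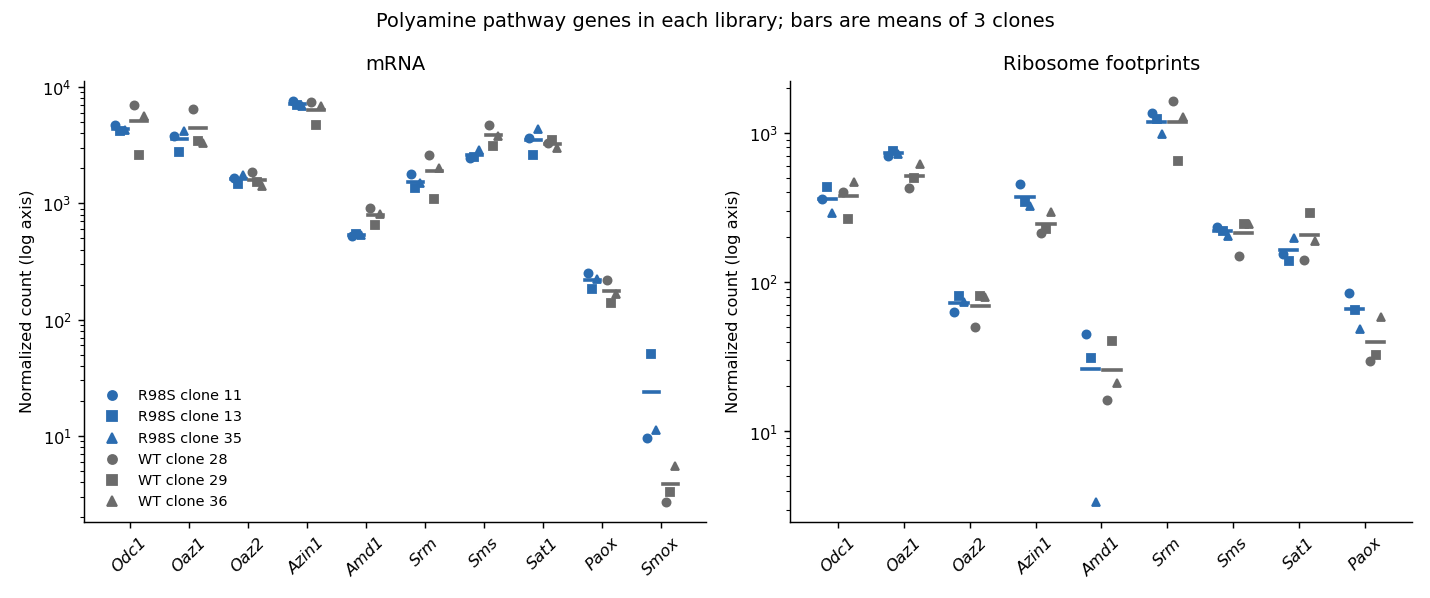
Normalized counts of the polyamine pathway genes in each library, mRNA at left and ribosome footprints at right, on log axes, with R98S clones in blue and WT clones in grey and a bar at the mean of 3 clones. The blue points of Amd1 and Sms lie below all grey points in mRNA, those of Oaz1 and Azin1 lie above all grey points in footprints, and the footprint value of Amd1 in R98S clone 35 is 3.36.

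The footprint density of a gene was taken as footprints per kilobase of counted coding sequence over mRNA per kilobase of exon, divided by the median gene of the same clone, because the tables were normalized separately and their ratio has no absolute scale. Most of these genes carried few footprints for their mRNA. Among 8770 genes that reached 10 normalized counts in each of the 12 libraries, Amd1 stood at 0.154 ± 0.111 of the median gene (SD, n = 6 clones; percentile 0.513), Odc1 at 0.202 ± 0.0477 (percentile 1.54), Azin1 at 0.215 ± 0.0498 (percentile 1.90) and Oaz2 at 0.256 ± 0.0705 (percentile 3.22). Sat1 was at 0.31 ± 0.095 (percentile 5.63) and Sms at 0.399 ± 0.128 (percentile 10.1). Oaz1 (0.683 ± 0.274, percentile 28.7) and Paox (0.883 ± 0.305, percentile 42.2) were nearer the median, and Srm was above it (1.27 ± 0.219, percentile 62.1). The Amd1 value includes R98S clone 35, in which Amd1 was under the limit of 10 with 2 footprint reads.

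When all exons gave the mRNA length, the 4 lowest of the 9 were Odc1, Amd1, Azin1 and Oaz2. These are the decarboxylases, the decarboxylase look-alike and 1 antizyme. Oaz1, which has the same kind of shift site as Oaz2, stood at 0.683. Srm, which joins the products of both decarboxylases into spermidine, held 6.29 times the density of Odc1. The 5 genes with an upstream ATG lay between 0.154 and 0.399 of the median gene, and of the 4 without one, Oaz2 lay in that range and Oaz1, Paox and Srm above it. Over all measured genes the same split was smaller, with a median of 0.854 in 3854 genes with an upstream ATG and 1.17 in 4796 genes without. This is a description of levels with no test. Annotated length matters for it: with the length of the longest coding transcript in place of all exons, Sat1 fell to percentile 0.673 and was then the lowest of the 9, Oaz1 fell to 11.6, and Srm rose to 76.4 and Paox to 64.2.

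**Figure D2:**
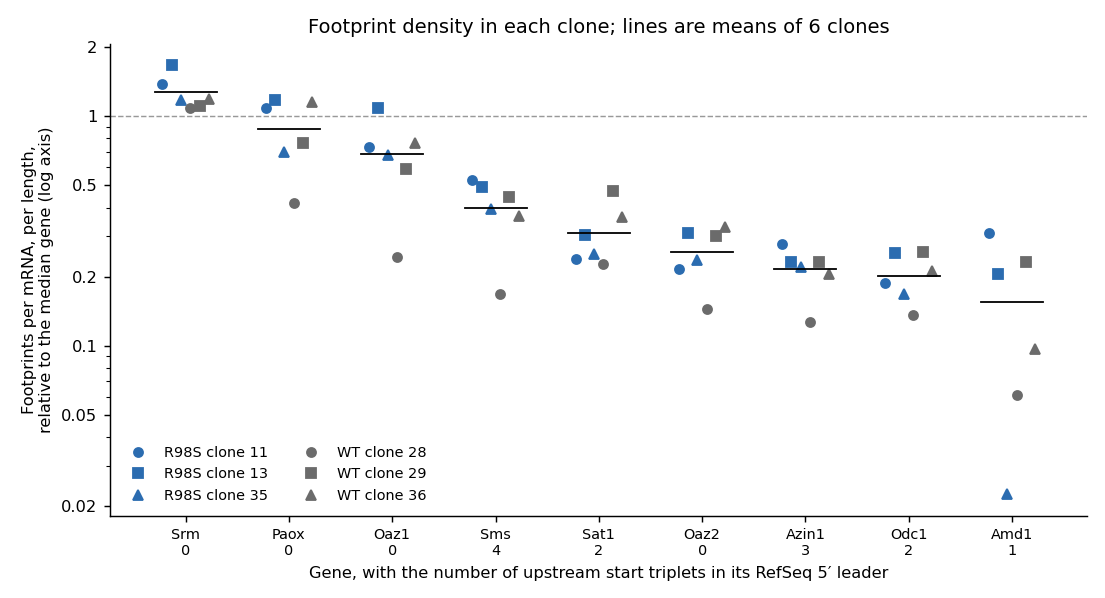
Footprint density of each gene in the 6 clones, relative to the median gene of the clone (dashed line at 1, log axis), with the mean as a black line and the number of upstream ATG triplets under each name. Srm is at 1.27 and Amd1 at 0.154, and WT clone 28 gives the lowest point in 8 of the 9 genes.

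WT clone 28, the clone with the shallow mRNA library, had the highest mRNA value in 6 of the 10 genes. It had the lowest density in 8 of the 9 genes, and R98S clone 35 had the lowest in Amd1. Sms, for example, was at 0.167 in that WT clone and at 0.443 and 0.368 in WT clones 29 and 36. Without this clone the TE difference between genotypes (defined below, log2) was 0.31 for Srm, -0.18 for Odc1, -0.29 for Oaz2 and -0.62 for Sat1, and the values for Oaz1, Azin1, Sms and Paox are given with those genes.

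To ask whether the R98S ribosome changed these genes, mRNA, footprints and footprints per mRNA (TE, the log2 ratio within each clone) were each compared between 3 R98S and 3 WT clones with limma, on log2(normalized count + 1) and with p-values adjusted over all genes tested at a threshold of 0.1. In mRNA none of the 10 genes passed, where 6.94% of 11344 genes did, and 3 of the 10 were at an unadjusted p under 0.05, where 17.9% of all were. In footprints none of 9 passed, where 7.76% of 9580 genes did, and 2 were under 0.05, where 20.3% were. In TE none of 8 passed, where 0.0221% of 9043 genes did (2 genes), and none of the 8 was under 0.05, where 7.85% were. With edgeR on whole reads no member passed in any of the comparisons. DESeq2 called 3 members in mRNA, where it called 11.3% of all genes, and none in footprints or TE. The median difference of the members was -0.03 (log2) in mRNA, 0.08 in footprints and 0.36 in TE, beside 0.01, 0.01 and -0.00143 over all genes tested. The median of the members in TE was 0.12 without WT clone 28 and 0.23 without R98S clone 13.

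**Figure D3:**
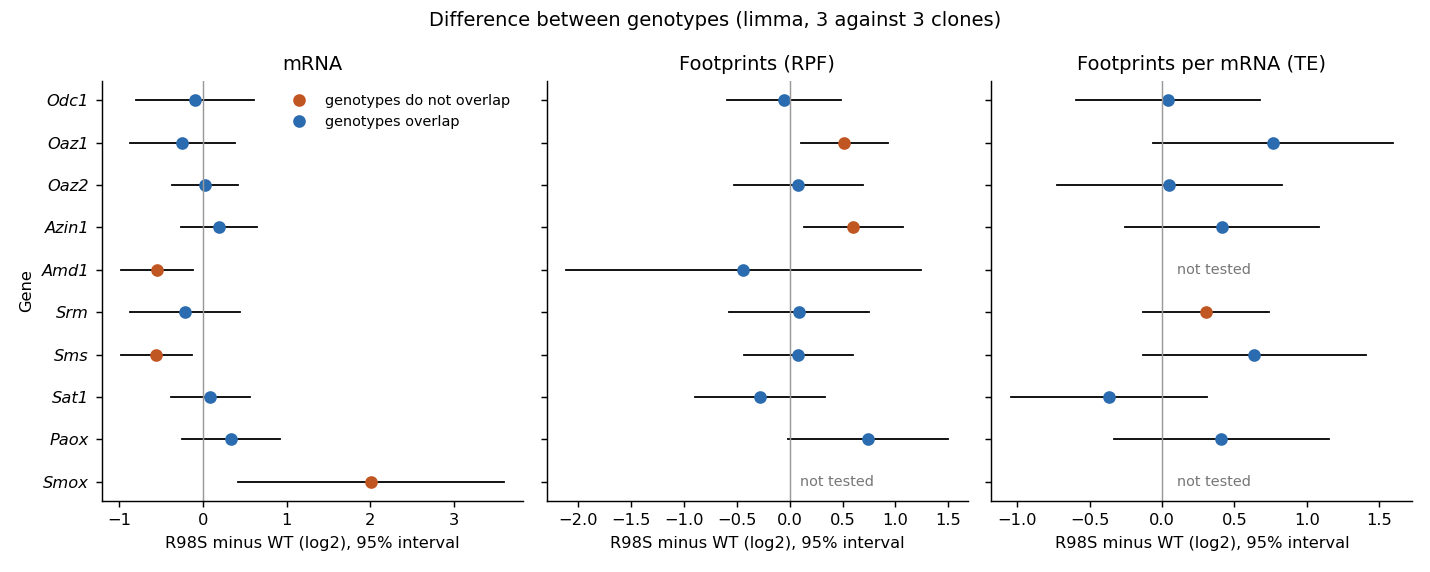
Difference between R98S and WT clones on the log2 scale in mRNA, footprints and footprints per mRNA, with the limma estimate as a point and its 95% interval as a line, and genes whose genotypes do not overlap in orange. The estimates for Amd1 (-0.55) and Sms (-0.56) are below 0 in mRNA and those for Oaz1 (0.52) and Azin1 (0.60) above 0 in footprints, and no gene passes the threshold.

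Odc1 (chr12:17544794-17551505, plus strand, mm10) makes putrescine and is the enzyme that antizyme removes. R98S clones 11, 13 and 35 gave 4735, 4208 and 4250.3 normalized counts of Odc1 mRNA, against 6977, 2624 and 5613 for WT clones 28, 29 and 36, the order in which values follow below. Footprint counts were 359, 431 and 289 for R98S against 402, 265 and 465 for WT. The R98S values lay inside the range of the WT clones in both assays. The differences were -0.09 ± 0.31 (log2, SE; adjusted p = 0.917) in mRNA, -0.05 ± 0.24 (adjusted p = 0.929) in footprints and 0.04 ± 0.28 (adjusted p = 0.975) in TE. The 95% intervals reached from -0.80 to 0.61 in mRNA and from -0.59 to 0.68 in TE, so a change of 1.5-fold is within them.

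Oaz1 (chr10:80826656-80829290, plus strand) is the widely expressed antizyme. The R98S libraries held 3765, 2764 and 4231 normalized counts of Oaz1 mRNA and the WT libraries 6552, 3422 and 3297. The footprint libraries held 700.4, 757 and 725 for R98S against 424, 499 and 619 for WT. The genotypes overlapped in mRNA, and in footprints all R98S clones were above all WT clones, as was the case in one direction or the other for 25.3% of all genes. The footprint difference was 0.52 ± 0.19 (log2, SE; 95% interval 0.10 to 0.93, adjusted p = 0.150), the mRNA difference -0.25 ± 0.28 (adjusted p = 0.700) and the TE difference 0.77 ± 0.37 (95% interval -0.06 to 1.60, adjusted p = 0.635). Without WT clone 28 the TE difference was 0.32 (adjusted p = 0.696) and the footprint difference 0.39 (limma adjusted p = 0.325).

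Oaz2 (chr9:65668001-65690300, plus strand) encodes a second antizyme. Oaz2 mRNA reached 1647, 1470.0 and 1766 normalized counts under R98S against 1861, 1537 and 1404 under WT. Oaz2 footprints reached 62.8, 80.5 and 73.9 against 49.7, 80.2 and 79.1, on 44 to 118 reads per library. The genotypes overlapped in both. The differences were 0.03 ± 0.18 (log2, SE) in mRNA, 0.08 ± 0.28 in footprints and 0.05 ± 0.35 in TE, with adjusted p of 0.953, 0.900 and 0.976.

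Azin1 (chr15:38487427-38519266, minus strand) is the antizyme inhibitor. The R98S clones gave 7589, 6964 and 6846 normalized counts of Azin1 mRNA and the WT clones 7522, 4697 and 6894. In footprints the R98S clones gave 451, 342 and 322, against 213, 227 and 293 for WT. As for Oaz1, all R98S clones were above all WT clones in footprints and the genotypes overlapped in mRNA. The footprint difference was 0.60 ± 0.21 (log2, SE; 95% interval 0.14 to 1.07, adjusted p = 0.142), the mRNA difference 0.19 ± 0.20 (adjusted p = 0.677) and the TE difference 0.41 ± 0.30 (adjusted p = 0.701). Without WT clone 28 the TE difference of Azin1 was 0.19 (adjusted p = 0.847) and its footprint difference 0.51 (limma adjusted p = 0.298). With libraries weighted by their quality in limma the footprint difference was 0.54 and its adjusted p fell to 0.0986, in a fit that called 18.8% of all genes.

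Amd1 (chr10:40287458-40302186, minus strand) supplies the aminopropyl donor for spermidine and spermine. Amd1 mRNA counts were close together under R98S, at 523, 545 and 536 after normalization, and were 916, 647 and 809 under WT. All R98S clones were below all WT clones, a separation that 23.5% of all genes showed in mRNA in one direction or the other. The difference was -0.55 ± 0.19 (log2, SE; 95% interval -0.98 to -0.12, adjusted p = 0.162). DESeq2 called it (-0.57, adjusted p = 0.0885), in a fit that called 11.3% of all genes in mRNA. So did the weighted limma fit (-0.56, adjusted p = 0.0258), which called 26.1%. Without WT clone 28 it did not pass (-0.44, limma adjusted p = 0.215). Nor did it pass with the median of each chromosome removed (-0.46, limma adjusted p = 0.249).

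Amd1 footprints came to 44.7, 31.0 and 3.36 normalized counts under R98S, on 84, 37 and 2 reads, and to 16.2, 40.6 and 21.1 under WT, on 17, 39 and 16 reads. R98S clone 35, the shallowest footprint library, was lowest and R98S clone 11, the deepest, was highest. The difference was -0.44 ± 0.76 (log2, SE; 95% interval -2.12 to 1.24, adjusted p = 0.785), and it was 0.61 without R98S clone 35, so no direction was detectable at this depth. A near-identical gene, Amd2, was listed at 14.6 to 45.7 normalized counts of mRNA, and how reads were shared between such copies is uncertain.

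Srm (chr4:148591503-148594993, plus strand), which makes spermidine, gave 1774, 1355 and 1495 normalized counts of mRNA under R98S against 2591, 1082 and 2008 under WT. Srm footprints were 1349, 1239 and 974 against 1628, 649.7 and 1281. The WT clones bracketed the R98S clones in both assays. The ratio of footprints to mRNA was 0.760, 0.914 and 0.651 in the R98S clones and 0.628, 0.600 and 0.638 in the WT clones, all R98S clones above all WT clones, which 14.8% of genes tested for TE showed in one direction or the other. The TE difference was 0.30 ± 0.19 (log2, SE; adjusted p = 0.690), and those in mRNA and footprints were -0.22 ± 0.29 (adjusted p = 0.758) and 0.09 ± 0.30 (adjusted p = 0.897).

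Sms (chrX:157443855-157492287, minus strand) turns spermidine into spermine. In mRNA, R98S clones gave 2463, 2495 and 2874 normalized counts, all below the 4729, 3121 and 3801 of WT. Such a separation, in one direction or the other, was seen in 23.5% of all genes in mRNA. In footprints they gave 235, 219 and 205 against 149, 244 and 244, with overlap. The mRNA difference was -0.56 ± 0.19 (log2, SE; 95% interval -0.98 to -0.13, adjusted p = 0.152), and the footprint difference was 0.08 ± 0.23 (adjusted p = 0.876). The mRNA difference passed with DESeq2 (-0.58, adjusted p = 0.0708), which called 11.3% of all genes. It also passed with weighted libraries in limma (-0.56, adjusted p = 0.0197), where 26.1% of all genes did. Without WT clone 29 it passed too (-0.70, limma adjusted p = 0.0941), where 5.44% of all genes did. Without WT clone 28 it did not pass (-0.40, limma adjusted p = 0.202). Nor did it pass with the median of each chromosome removed (-0.48, limma adjusted p = 0.280). The TE difference was 0.64 ± 0.35 (adjusted p = 0.655), and 0.25 (adjusted p = 0.763) without WT clone 28.

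The catabolic genes were measured at very different depths. Sat1 (chrX:155213132-155216449, minus strand) gave 3637, 2589.6 and 4405 normalized counts of mRNA under R98S against 3289.6, 3529 and 2987 under WT. Sat1 footprints were 155, 139 and 198 against 139, 292 and 188. The genotypes overlapped in both, with differences of 0.09 ± 0.21 (log2, SE; adjusted p = 0.879) in mRNA, -0.28 ± 0.28 (adjusted p = 0.616) in footprints and -0.37 ± 0.30 (adjusted p = 0.731) in TE, which was -0.62 (adjusted p = 0.497) without WT clone 28. The Sat1 footprint difference was -0.09 (limma adjusted p = 0.887) with the median of each chromosome removed. With all clones, Sat1 was the only member with a negative TE difference among the 8 tested, with Odc1 (0.04) and Oaz2 (0.05) near 0. Without WT clone 28 the TE differences of Odc1 (-0.18) and Oaz2 (-0.29) were negative too.

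Paox (chr7:140115799-140137224, plus strand) gave 252, 182 and 225 normalized counts of mRNA under R98S against 220.2, 139 and 168 under WT. Paox footprints were 84.6, 65.4 and 48.7 against 29.6, 32.3 and 58.0, on 29 to 159 reads, with R98S clone 35 below WT clone 36. The differences were 0.33 ± 0.26 (log2, SE; adjusted p = 0.558) in mRNA, 0.74 ± 0.34 (95% interval -0.01 to 1.50, adjusted p = 0.255) in footprints and 0.41 ± 0.33 (adjusted p = 0.726) in TE. The TE difference of Paox was 0.0582 (adjusted p = 0.958) without WT clone 28. With the median of each chromosome removed, Paox was at 0.15 in mRNA and 0.55 in footprints (limma adjusted p = 0.795 and 0.414).

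Smox (chr2:131491496-131525922, plus strand) was close to the lower limit of the mRNA table. It had 12, 62 and 13 reads in the R98S clones and 1, 4 and 7 in the WT clones, or 9.53, 50.8 and 11.2 against 2.69, 3.30 and 5.49 normalized counts. All R98S clones were above all WT clones, a separation that 23.5% of all genes showed in mRNA in one direction or the other. R98S clone 13 stood far above the other 5. The difference was 2.00 ± 0.71 (log2(normalized count + 1), SE; adjusted p = 0.164), a value that a pseudocount of 5 lowered to 1.43. DESeq2 called it (2.57, adjusted p = 0.0952), in a fit that called 11.3% of all genes. Without R98S clone 13 Smox fell below the limit of a mean of 10 normalized counts and was not tested.

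Balances within the pathway were compared as ratios inside each library, 6 pairs in both assays, with an exact two-sided permutation test whose smallest p for 3 against 3 clones is 0.1. Ratios of normalized counts of different genes depend on their lengths and are compared only between clones. The antizyme to decarboxylase ratio, Oaz1 over Odc1, was 1.95, 1.76 and 2.51 in the footprints of the R98S clones and 1.05, 1.88 and 1.33 in those of the WT clones, a difference of 0.57 (log2; exact p = 0.2). In mRNA the same ratio was 0.795, 0.657 and 0.996 in R98S and 0.939, 1.30 and 0.587 in WT clones (difference -0.16, exact p = 0.8).

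The inhibitor to decarboxylase ratio, Azin1 over Odc1, was 1.26, 0.794 and 1.12 in the footprints of the R98S clones and 0.530, 0.855 and 0.629 in those of the WT clones (difference 0.65, exact p = 0.2). Its mRNA ratio was nearly equal in the R98S clones, at 1.60, 1.66 and 1.61, while the WT clones spread on both sides of that, at 1.08, 1.79 and 1.23 (difference 0.28, exact p = 0.4). The ratio of the antizymes, Oaz2 over Oaz1, was 0.0896, 0.106 and 0.102 in R98S footprints and 0.117, 0.161 and 0.128 in WT footprints, with no overlap (difference -0.44, exact p = 0.1). In mRNA, where Amd1 over Odc1 was 0.110, 0.130 and 0.126 in R98S and 0.131, 0.247 and 0.144 in WT clones, the genotypes also did not overlap (difference -0.46, exact p = 0.1). These were the 2 of 12 ratios without overlap, and after adjustment over the 12 tests the smallest p was 0.6. Among single genes 23.5% in mRNA and 25.3% in footprints did not overlap. The share over ratios of other genes was not measured.

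The genes that moved most like Odc1 were looked up over the 12 libraries, on log2(normalized count + 1) centred within each assay, among the 9042 other genes that reached 10 in each. Nop16, a nucleolar protein gene of ribosome synthesis, had the highest Pearson r (0.963), followed by Mrps28 (0.927), of the mitochondrial ribosome, and Psmb10 (0.921), a proteasome subunit. Within the pathway Srm was rank 17 (r = 0.881). The rest were far behind, from Azin1 (r = 0.456, rank 1330) through Paox (0.409), Oaz1 (0.405), Sms (0.319) and Oaz2 (0.0605) to Sat1 (-0.427, rank 7456). The libraries share clones, genotypes and depth, so these values describe likeness only. Odc1 and Srm were both lowest in WT clone 29 in mRNA and in footprints.

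Genes that feed or use the pathway were taken from 5 lists with 34 genes, of which 18 were tested in mRNA and 17 in footprints and in TE. Mtap was the gene of these lists that passed, lower in R98S clones in mRNA and in footprints. Mtap (methylthioadenosine phosphorylase) recycles the methylthioadenosine that Srm and Sms release, back towards methionine. R98S clones 11, 13 and 35 held 11322, 8649.9 and 9385 normalized counts of Mtap mRNA, against 17686, 20899 and 25251 for WT clones 28, 29 and 36. The highest R98S clone was below the lowest WT clone, where 23.5% of all genes did not overlap in mRNA. The difference was -1.11 ± 0.19 (log2, SE; 95% interval -1.55 to -0.68, adjusted p = 0.0137), or 0.460 of the WT mean.

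Mtap footprints came to 4645, 3146 and 2558 normalized counts under R98S and to 4970.4, 7650.1 and 7869.6 under WT. The genotypes again did not overlap, as in 25.3% of all genes in footprints. The difference was -1.0 ± 0.26 (log2, SE; 95% interval -1.57 to -0.43, adjusted p = 0.0582). Its TE did not pass (0.11 ± 0.21, adjusted p = 0.888), with ratios of footprints to mRNA of 0.410, 0.364 and 0.273 in R98S and 0.281, 0.366 and 0.312 in WT clones. The mRNA difference kept its call when any clone was left out (-1.24 to -0.98). The footprint difference (-1.24 to -0.81) lost its call without R98S clone 13 (-0.96, adjusted p = 0.219), R98S clone 35 (-0.81, adjusted p = 0.112), WT clone 29 (-0.90, adjusted p = 0.119) or WT clone 36 (-0.88, adjusted p = 0.170).

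By list, the 7 genes of methionine supply and methylthioadenosine salvage gave 1 lower and none higher in both mRNA and footprints, with a median difference of -0.21 (log2) in mRNA and -0.06 in footprints. No gene passed among the 3 tested of 8 for ornithine and arginine supply, the 3 of 4 for hypusine synthesis and eIF5A, or the 4 of 10 for polyamine transport. Their median differences in mRNA were -0.09, -0.32 and -0.06. Of the close relatives of the members only Amd2 was tested, in mRNA (-0.70, adjusted p = 0.469). Over the lists together 5 of 18 genes in mRNA, 3 of 17 in footprints and none of 17 in TE were at an unadjusted p under 0.05 by limma, beside 17.9%, 20.3% and 7.85% of all genes tested, and the 1 gene that passed of 18 in mRNA and of 17 in footprints stands beside 6.94% and 7.76% of all. In TE, where limma called no gene of these lists, the differences were 8 positive and 9 negative.

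Eif5a, whose protein carries hypusine, gave 6691, 7510.4 and 5891 normalized footprint counts under R98S against 4622, 4312 and 5369 under WT. The R98S clones were all higher, a separation that 25.3% of all genes showed in footprints in one direction or the other. The Eif5a footprint difference was 0.49 ± 0.18 (log2, SE; adjusted p = 0.164), and its mRNA overlapped (0.37 ± 0.27, adjusted p = 0.529). Slc3a2, the heavy chain of an amino acid exchanger linked to polyamine export, gave 10977, 10465 and 8551 normalized counts of mRNA under R98S against 9423, 6309.6 and 9198 under WT (0.28 ± 0.20, adjusted p = 0.523). Its footprints overlapped as well (0.14 ± 0.27, adjusted p = 0.803).

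**Figure D4:**
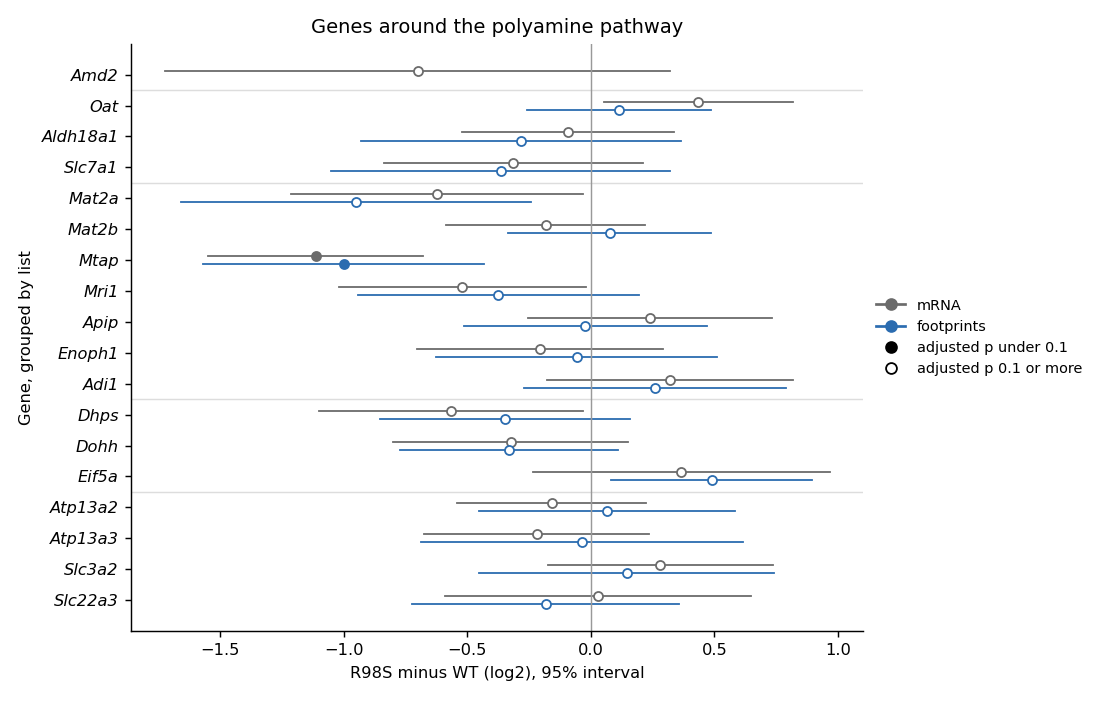
Difference between R98S and WT clones on the log2 scale for the tested genes of the 5 lists around the polyamine pathway, mRNA in grey and footprints in blue, with 95% intervals and filled points where the adjusted p is under 0.1. Mtap is the filled gene, at -1.11 in mRNA and -1.0 in footprints.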

How the data were processed

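In both tables the authors deposited signal values, gene counts divided by DESeq2 size factors within each table. Per the paper's methods and the submitters' processing notes, reads were aligned to mm10 with TopHat2 2.0.11, footprints were counted on coding sequence, 3 technical replicates of each footprint library were merged, and mRNA was counted on exons. Values were whole multiples of 1 read (tolerance 1e-06), so reads were recovered.

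Genes with a mean of at least 10 (TE: at least 10 in all 12 libraries) were tested with limma 3.58.1 in R 4.3.3 on log2(value + 1), with Benjamini-Hochberg adjustment and a threshold of 0.1; Babel, used in the study, was not run. edgeR 4.0.16 and DESeq2 1.42.0 were alternatives on the recovered reads. Scripts were tested on simulated data. TE pairs the libraries of a clone by its number in the labels, and their deviations from genotype means correlated at 0.218 to 0.681. WT clone 28 was the lowest and WT clone 36 the next (0.311). Lengths came from GENCODE M21; of the genes listed, 36860 in mRNA and 9805 in footprints matched it. All 10 members were named, and list genes with an adjusted p under 0.1, Eif5a, Slc3a2 and the 3 genes most like Odc1. Members and lists were chosen with earlier results of these data known. P-values measure the spread between 3 clones a genotype.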

Additional observations from a re-analysis of the deposited data

How the results depend on the processing

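No member passed in footprints or TE with another pseudocount, edgeR or DESeq2 or with any clone left out, in footprints with TMM factors, no filter or chromosome medians removed, or in TE with library weights or a mean of at least 10. Members passing in mRNA went from 0 to 3 with DESeq2, 2 with library weights and 0 to 1 over the fits without 1 clone, and in footprints to 1 with library weights. Genes passing in mRNA went from 787 to 1283 with DESeq2, 2959 with library weights and 315 to 1113 without 1 clone; in footprints from 743 to 1799 with library weights and 229 (without R98S clone 13) to 1148 (without R98S clone 35); in TE from 2 to 796 with library weights, 6 with DESeq2 and 0 to 3 without 1 clone. The causes were not tested.

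Small differences turned direction, none of them past the threshold. With library weights Oaz1 mRNA was 0.0268, footprints of Oaz2 -0.0301 and of Amd1 0.20 (0.13 with edgeR, 0.072 with DESeq2), and TE of Oaz2 -0.20, Odc1 -0.18, Eif5a -0.22 and Slc3a2 0.0214; with chromosome medians removed Srm footprints were -0.10. Leaving out 1 clone moved the mRNA difference of Azin1 from -0.0151 to 0.32, Oaz1 -0.42 to 0.0722, Oaz2 -0.0595 to 0.14, Odc1 -0.51 to 0.19, Sat1 -0.0877 to 0.30 and Srm -0.57 to 0.0556. It moved footprints of Amd1 from -1.09 to 0.61, Oaz2 -0.14 to 0.20, Odc1 -0.28 to 0.12, Sat1 -0.53 to 0.00061, Slc3a2 -0.12 to 0.37, Sms -0.15 to 0.20 and Srm -0.30 to 0.37, and TE of Eif5a from -0.16 to 0.36, Mtap -0.0128 to 0.28, Oaz2 -0.29 to 0.25 and Odc1 -0.18 to 0.23. Ratios turned for Oaz1 over Odc1 in mRNA (-0.46 to 0.11), Sat1 over Odc1 in mRNA (-0.10 to 0.65) and footprints (-0.54 to 0.29), Amd1 over Odc1 (-1.03 to 0.51) and Srm over Sms (-0.49 to 0.52) in footprints. With the longest coding transcript as length, density was 1.64 for Srm, 0.155 for Sat1 and 1.30 for Paox.

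Without the pairing by clone (no replicate block), TE differences were the same, 3 genes and no member passed, and 2 members were at an unadjusted p under 0.05 (Oaz1 and Sms, by limma); with edgeR's interaction and a replicate block 3 genes and no member passed. The block changed no other call. Few footprint reads limit Amd1, and few mRNA reads limit Smox.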
